A study of Homo sapiens with 12 samples.

Results

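The 9 genes described here encode the enzymes that write and erase DNA methylation and their closest partners. They are the DNA methyltransferases DNMT1, DNMT3A and DNMT3B, the TET dioxygenases TET1, TET2 and TET3, the DNMT1 partner UHRF1, and the DNA glycosylases TDG and MBD4. They were chosen by name, not by a threshold on a measured value. All 9 were found among the 22784 gene symbols of the expression table, and all 9 were among the 14839 symbols with enough reads to be tested. The study itself singled out DNMT1, DNMT3A, DNMT3B, TET1 and TET2 in these libraries, so their inclusion is not independent evidence of a change.

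SK-UT-1, an established human uterine leiomyosarcoma (uLMS) cell line, was exposed for 48 h to 5 µM JQ1 or 5 µM I-BET 762 and profiled by RNA-seq. Both compounds are small molecules that block the acetyl-lysine pocket of the BET bromodomain proteins. The controls received the vehicle, labelled VEH and given as DMSO in the study's methods. The labels list 4 libraries per group, of which 3 DMSO, 4 JQ1 and 3 I-BET 762 libraries carry values. DMSO replicate 16 and I-BET 762 replicate 24 were not analysed here. All groups are the same cell line at a single dose and a single time, and the labels do not say whether replicates were separate cultures, so p-values measure the spread between these libraries.

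DNA methylation at CpG sites is copied after replication by DNMT1, which UHRF1 guides to hemimethylated DNA. DNMT3A and DNMT3B place methyl groups on unmethylated sites. The TET enzymes oxidize the methyl group, and TDG then removes the oxidized base so that repair can restore a plain cytosine. MBD4 removes thymine that arises when a methylated cytosine loses its amino group. In cancer this balance is often disturbed, and DNMT3A and TET2 are known tumor suppressors in blood cells.

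Reads on genes ranged from 35564586 to 39658989 per library. All 9 members had far more reads than the limit of 3 reads that a count of 0 allows, so depth did not limit their comparison. JQ1 replicate 18 stood apart from the other JQ1 libraries, since its chi-square against them, divided by the number of genes, was 20.57 to 22.12, and the others had 5.38 to 15.29 among themselves. Without it DNMT3A, TET1 and TET2 were still called with JQ1 (log2 fold changes of -1.82, -0.74 and -0.95), and the values without it are given below where a call or a direction changed. Of the smooth muscle markers, 9 were in the table and 7 of them exceeded a mean of 100 normalized counts with DMSO, while ACTG2 never exceeded 3 reads in a library. The summed smooth muscle markers ran from 20925 to 21519 with DMSO, 10871 to 11520 with JQ1 and 12193 to 12764 with I-BET 762. Their part in the results was not tested. In bulk RNA, fewer cells of a kind and less RNA per cell cannot be told apart. Of the epithelial markers, KRT8, KRT18 and KRT19 exceeded 100, and the 7 together summed to 1231 to 1291 with DMSO, 517 to 612 with JQ1 and 507 to 547 with I-BET 762. The summed leukocyte markers stayed at or below 44 normalized counts and the endothelial ones at or below 12, and PTPRC, CDH5 and KDR never exceeded 3 reads. The 7 mesenchymal markers summed to 144079 to 176202 over all libraries. HEXIM1, a gene known to rise under BET inhibition, went from 1627 ± 22.6 normalized counts to 4718 ± 218 under JQ1 and 3370 ± 142 under I-BET 762. Here and in what follows, ± gives the SD over 3 DMSO, 4 JQ1 and 3 I-BET 762 libraries (n = 3, 4 and 3). MYC had 5176 ± 188, 10372 ± 583 and 7517 ± 410 normalized counts in the same order. It was thus higher with both inhibitors, with log2 fold changes of 1.0 and 0.54 (adjusted p = 1.28e-10 and 8.22e-07 in limma). Of the genes for the targets of the inhibitors, BRD3 had log2 fold changes of -0.33 and -0.37, and BRD2 had only 7 to 168 reads per library.

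RefSeq (GRCh38.p14) lists 20 promoter windows for the 9 genes, each running from 250 bases before to 50 bases after a start site. They were searched on both strands for the E2F motif (TTTCCCGC, TTTCGCGC, TTTGCCGC or TTTGGCGC), the E-box CACGTG and the GC box GGGCGG, and each match was counted by itself, overlaps included. E2F factors are known to drive genes of DNA replication, and MYC family proteins are known to bind the E-box. The E2F motif was found in 3 of the 20 windows, which belong to DNMT1 and UHRF1, the maintenance genes. In all 35116 windows of the table the share with an E2F motif was 3.3%. The E-box was found in 5 windows, those of DNMT3A, TDG, TET2 and TET3, against 7.3% of all windows. The DNMT3A windows that hold it overlap and share the same site, which was thus counted more than once. Some windows of DNMT3A, TET1 and UHRF1 overlap, so counts of windows are not counts of separate sites. The GC box was found in 12 windows of 5 genes, against 45.0% of all windows. Which start sites SK-UT-1 cells use was not measured, and a match of letters is a description of the sequence.

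The windows of DNMT1 (chr19:10194904-10195203, minus strand) and UHRF1 (chr19:4909251-4909550, plus strand) are shown for the E2F motif. Both lie inside the genes, downstream of the annotated gene starts at bases 10231286 (DNMT1) and 4903080 (UHRF1). No window at those starts was listed, so the sequence there was not searched. The windows of DNMT3A (chr2:25252266-25252565, minus strand) and TET2 (chr4:105145625-105145924, plus strand), the members that fell most, are shown for the E-box. The E-box was absent from the other TET2 window and from most DNMT3A windows. The DNMT3A window shown lies inside the gene, and the windows near the annotated DNMT3A start at base 25342590 held no E-box. It was also present for TDG, which rose, and for TET3, and absent from all TET1 windows. A link between the E-box and the changes was not tested. Capitals mark the motif.
DNMT1: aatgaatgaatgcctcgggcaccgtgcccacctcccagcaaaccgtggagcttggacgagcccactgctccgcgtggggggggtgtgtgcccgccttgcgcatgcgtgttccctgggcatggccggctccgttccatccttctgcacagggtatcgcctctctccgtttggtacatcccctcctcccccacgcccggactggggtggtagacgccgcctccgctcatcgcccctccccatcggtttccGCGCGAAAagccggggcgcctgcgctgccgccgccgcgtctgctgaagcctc
UHRF1: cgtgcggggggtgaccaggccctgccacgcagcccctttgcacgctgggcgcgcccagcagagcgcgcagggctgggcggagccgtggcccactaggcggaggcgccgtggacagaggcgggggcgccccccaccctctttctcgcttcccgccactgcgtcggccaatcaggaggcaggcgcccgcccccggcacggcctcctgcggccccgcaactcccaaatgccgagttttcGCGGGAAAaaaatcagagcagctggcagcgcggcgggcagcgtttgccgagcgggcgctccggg
DNMT3A: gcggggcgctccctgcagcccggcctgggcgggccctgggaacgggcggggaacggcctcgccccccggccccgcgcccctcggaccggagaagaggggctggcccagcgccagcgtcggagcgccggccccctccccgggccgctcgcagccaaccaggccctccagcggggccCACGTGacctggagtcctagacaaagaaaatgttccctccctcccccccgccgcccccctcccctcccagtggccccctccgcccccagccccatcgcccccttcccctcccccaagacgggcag
TET2: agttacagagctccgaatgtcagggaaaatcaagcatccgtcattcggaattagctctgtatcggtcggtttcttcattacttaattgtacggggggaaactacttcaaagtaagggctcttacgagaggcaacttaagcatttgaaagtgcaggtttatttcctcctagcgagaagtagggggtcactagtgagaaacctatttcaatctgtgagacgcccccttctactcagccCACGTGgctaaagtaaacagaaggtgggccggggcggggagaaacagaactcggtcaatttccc

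The DNMT1 window held 30 CpG sites, more than 77.6% of all windows held. The printed UHRF1 window held 36, and the printed DNMT3A window held 28. The TET2 window shown above held 13 CpG sites, near the median of 14 over all windows, and the other TET2 window held 35. TET1 had 3 windows with 10, 6 and 11 CpG sites. The single DNMT3B window (chr20:32779602-32779901) held 3, fewer than most windows held. It lies inside the gene, downstream of the annotated gene start at base 32762385. No window at that start was listed, so the sequence there was not searched.

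The question was how BET inhibition alters the RNA levels of these genes. A gene was called when its adjusted p-value was under 0.05 and its fold change exceeded 1.5. With JQ1, DNMT3A, TET1 and TET2 fell past these thresholds and TDG rose past them. With I-BET 762, DNMT3A and TET2 fell past them and no member rose past them. Thus 3 of 9 members were called down with JQ1, where 22.8% of all genes tested were, and 1 was called up, where 13.3% were. The counts with I-BET 762 were 2 down against 17.9% of all genes, and 0 up against 8.96%. By the adjusted p-value alone, 4 members were lower and 4 higher with JQ1, against 35.6% and 36.0% of all genes. With I-BET 762, 3 were lower and 3 higher, against 31.3% and 29.9%. The median log2 fold change of the 9 genes was -0.02 with JQ1 and 0.07 with I-BET 762, beside 0.01 and 0.00 for all genes tested. The changes were those of single genes in opposite directions.

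**Figure D1:**
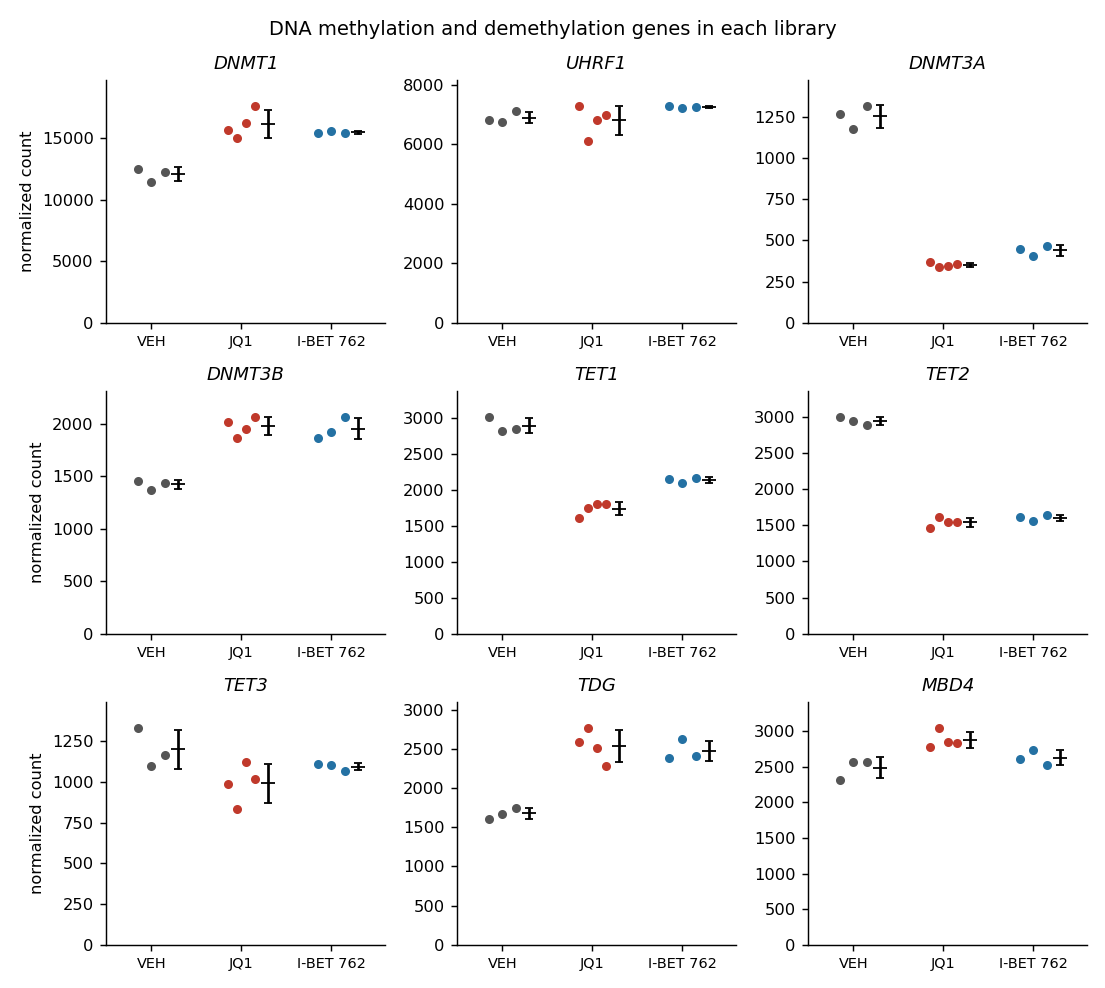
Normalized count (y axis, from 0) of each of the 9 genes in each library (points) of the 3 DMSO (VEH), 4 JQ1 and 3 I-BET 762 libraries, with the group mean and SD (black bars). DNMT3A, TET1 and TET2 lie lower in every treated library than in any DMSO library, and DNMT1, DNMT3B and TDG lie higher.

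**Figure D2:**
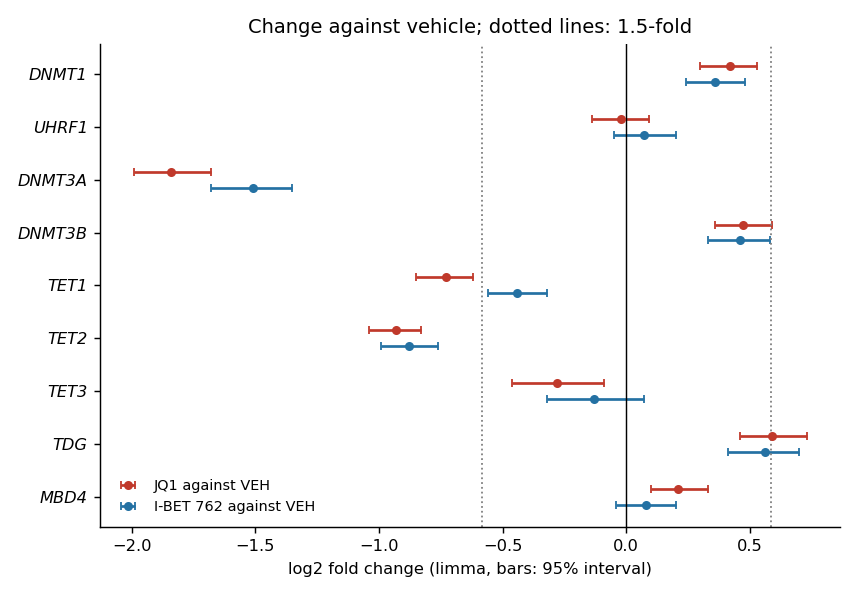
Log2 fold change against DMSO (x axis) of the 9 genes with JQ1 (red) and I-BET 762 (blue), with 95% intervals from limma. The dotted lines mark 1.5-fold, and DNMT3A lies farthest from 0 at -1.84 and -1.51.

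DNMT3A showed the largest change of the 9 genes. It encodes a de novo methyltransferase and lies on chromosome 2 from 25227855 to 25342590 (Gencode V44 on GRCh38, minus strand, ENSG00000119772.19). DMSO replicates 13, 14 and 15 had 1268, 1182 and 1320 normalized counts. JQ1 replicates 17, 18, 19 and 20 had 367, 341, 342 and 355. I-BET 762 replicates 21, 22 and 23 had 447, 405 and 467. The groups did not overlap in any pair, and the lowest DMSO library was above 2 times every treated library. It changed on the log2 scale by -1.84 for JQ1 (standard error 0.07, Benjamini-Hochberg adjusted p = 3.59e-12 from limma) and -1.51 with I-BET 762 (standard error 0.08, adjusted p = 2.08e-10). DNMT3A was thus 3.57-fold lower with JQ1 and 2.86-fold lower with I-BET 762. Of all genes tested, 6.23% had a lower log2 fold change with JQ1 and 5.76% with I-BET 762.

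DNMT3B, the other de novo methyltransferase, moved the opposite way. It lies on chromosome 20 from 32762385 to 32809359 (plus strand, ENSG00000088305.19). Its DMSO libraries had 1453, 1371 and 1438 normalized counts. Those with JQ1 had 2012, 1866, 1954 and 2065, and those with I-BET 762 had 1869, 1925 and 2061. All treated libraries were above all DMSO libraries. The log2 fold change was 0.47 with JQ1 (standard error 0.05, adjusted p = 8.83e-07) and 0.46 with I-BET 762 (standard error 0.06, adjusted p = 4.84e-06), a rise of 38.9% and 37.3% that stayed under 1.5-fold. With libraries scaled to equal totals, the DNMT3B change was smaller. It was 0.29 with JQ1 (adjusted p = 0.000914) and 0.36 with I-BET 762 (adjusted p = 0.000357) in limma.

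DNMT1, the maintenance methyltransferase, had the most reads of the 9 genes. It lies on chromosome 19 from 10133342 to 10231286 (minus strand, ENSG00000130816.17). Normalized counts were 12464, 11434 and 12275 with DMSO. They were 15690, 14986, 16189 and 17624 with JQ1, and 15429, 15606 and 15385 with I-BET 762. Again every treated library exceeded every DMSO library. On the log2 scale the change was 0.42 with JQ1 (standard error 0.05, adjusted p = 4.01e-06) and 0.36 with I-BET 762 (standard error 0.06, adjusted p = 5.98e-05), under 1.5-fold in both. With libraries scaled to equal totals, the DNMT1 change was smaller. It was 0.23 with JQ1 (adjusted p = 0.00401) and 0.26 with I-BET 762 (adjusted p = 0.00333) in limma. S1PR2 shares 83 bases of exon with DNMT1 on the same strand.

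UHRF1 reads hemimethylated DNA and brings DNMT1 to it, and did not pass the test with either inhibitor. It lies on the same chromosome as DNMT1, from 4903080 to 4962154 (plus strand, ENSG00000276043.5). The DMSO libraries had 6815, 6765 and 7114 normalized counts, and the JQ1 libraries had 7296, 6111, 6830 and 6971. The JQ1 libraries lay on both sides of the DMSO libraries, with replicate 18 lowest. The I-BET 762 libraries had 7285, 7229 and 7266, just above all DMSO libraries. The log2 fold change was -0.02 with JQ1 (95% interval -0.14 to 0.09, adjusted p = 0.717), 0.03 without JQ1 replicate 18, and 0.07 with I-BET 762 (95% interval -0.05 to 0.20, adjusted p = 0.280). With libraries scaled to the same total, these changes were -0.21 (adjusted p = 0.00985, in a range of 0.00985 to 0.995) and -0.02. Of the 59 stretches of 75 exon bases in UHRF1, 21 (35.6%) have an exact copy on chromosome 12. How reads that fit more than a single place were treated is not given in the sources used here, so the UHRF1 level is uncertain.

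TET2 fell almost equally with both inhibitors. It lies on chromosome 4 from 105145875 to 105279816 (plus strand, ENSG00000168769.14). Normalized counts were 2998, 2941 and 2881 with DMSO. They were 1467, 1617, 1545 and 1540 with JQ1, and 1620, 1552 and 1636 with I-BET 762. The treated libraries formed a single range far below the DMSO libraries. In limma the log2 fold change was -0.93 with JQ1 (standard error 0.05, adjusted p = 1.07e-10) and -0.88 with I-BET 762 (standard error 0.05, adjusted p = 1.35e-09), so that TET2 was 1.91-fold and 1.83-fold lower.

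TET1 fell in steps, from DMSO to I-BET 762 to JQ1. It lies on chromosome 10 from 68560337 to 68694487 (plus strand, ENSG00000138336.9). The DMSO libraries had 3021, 2819 and 2854 normalized counts. The I-BET 762 libraries had 2153, 2099 and 2171, and the JQ1 libraries had 1609, 1748, 1810 and 1800. No pair of groups overlapped. The log2 fold change was -0.73 with JQ1 (standard error 0.05, adjusted p = 3.62e-09), past 1.5-fold, and -0.44 with I-BET 762 (standard error 0.06, adjusted p = 5.92e-06), under it.

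TET3, the remaining dioxygenase, changed least among the TET genes. It lies on chromosome 2 from 73984910 to 74108176 (plus strand, ENSG00000187605.16). The DMSO libraries had 1331, 1100 and 1165 normalized counts, the JQ1 libraries 990, 835, 1119 and 1020, and the I-BET 762 libraries 1109, 1106 and 1068. Its groups overlapped, and its spread between replicates was the widest of the 9 genes within the JQ1 and the DMSO groups, at 11.9% and 9.92% of the mean. The log2 fold change with JQ1 was -0.28 (standard error 0.09, adjusted p = 0.00922), and without DMSO replicate 13 it was -0.20 with an adjusted p of 0.0672. The alternatives spanned adjusted p-values from 0.000989 to 0.0672. With I-BET 762 it was -0.13 (95% interval -0.32 to 0.07, adjusted p = 0.249).

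TDG removes the bases that TET enzymes oxidize, and it rose with both inhibitors. It lies on chromosome 12 from 103965822 to 103988874 (plus strand, ENSG00000139372.15). Normalized counts were 1611, 1676 and 1753 with DMSO. They were 2590, 2768, 2509 and 2280 with JQ1, and 2388, 2625 and 2407 with I-BET 762. All treated libraries exceeded all DMSO libraries. It changed on the log2 scale by 0.59 with JQ1 (standard error 0.06, adjusted p = 4.41e-07), a fold change of 1.51 and so barely past the threshold, and 0.56 with I-BET 762 (standard error 0.07, adjusted p = 3.26e-06), a fold change of 1.47. The call with JQ1 was lost without DMSO replicate 13 (0.56), JQ1 replicate 17 (0.58) or JQ1 replicate 18 (0.55), and also with libraries scaled to equal totals (0.41) or equal upper quartiles (0.53), and without DMSO replicate 15 TDG was also called with I-BET 762 (0.59). Of its 59 exon stretches, 13 (22.0%) have an exact copy on chromosome 11 or elsewhere on chromosome 12, which makes its level uncertain too.

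MBD4, the glycosylase for thymine at methylated sites, lies on chromosome 3 from 129430947 to 129440179 (minus strand, ENSG00000129071.10). The DMSO libraries had 2310, 2565 and 2571 normalized counts, the JQ1 libraries 2772, 3041, 2838 and 2835, and the I-BET 762 libraries 2612, 2734 and 2529. The JQ1 libraries lay above the DMSO libraries, and the I-BET 762 libraries overlapped with them. The log2 fold change was 0.21 with JQ1 (standard error 0.05, adjusted p = 0.00228) and 0.08 with I-BET 762 (95% interval -0.04 to 0.20, adjusted p = 0.229). With all libraries scaled to the same total, the MBD4 change was 0.03 under JQ1 (adjusted p = 0.598) and -0.01 under I-BET 762. The alternatives spanned adjusted p-values from 0.00219 to 0.598 for JQ1. IFT122 overlaps 8.3% of the MBD4 exon bases on the opposite strand, and the strand setting of the counting is not given in the sources used here.

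Over the 9 genes, groups did not overlap for 7 with JQ1 and for 7 with I-BET 762 against DMSO, where 68.4% and 71.0% of all genes tested had groups that did not overlap. Both comparisons share the DMSO libraries.

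JQ1 is a thienotriazolodiazepine and I-BET 762 a benzotriazolodiazepine, so that a thiophene ring in the former stands in place of a benzene ring. They were compared directly at the same dose and time as the only pair of compounds. With an adjusted p-value under 0.05, 2 members were lower with JQ1 than with I-BET 762, where 14.0% of all genes were, and 0 were higher, where 13.3% were. None passed 1.5-fold in limma, against 3.59% of all genes lower and 1.73% higher. Those lower with JQ1 were DNMT3A and TET1. The log2 difference of DNMT3A was -0.32 (95% interval -0.47 to -0.17, adjusted p = 0.00406), from a mean of 351 normalized counts with JQ1 and 439 with I-BET 762. The log2 difference of TET1 was -0.30 (95% interval -0.41 to -0.19, adjusted p = 0.000683), from means of 1742 and 2141. MBD4 was 0.13 higher with JQ1 (95% interval 0.02 to 0.24), with an unadjusted p of 0.0289 and an adjusted p of 0.0874 in limma, so it did not pass the test. For the other members the 95% interval of the difference included 0. It ran from -0.06 to 0.17 for DNMT1, -0.10 to 0.13 for DNMT3B, -0.16 to 0.05 for TET2 and -0.10 to 0.17 for TDG. It ran from -0.33 to 0.03 for TET3 and from -0.21 to 0.02 for UHRF1. A difference of 1.5-fold (0.585 on the log2 scale) lay outside all of these intervals. The JQ1 and I-BET 762 libraries did not overlap for 3 members, DNMT3A, TET1 and MBD4, where 33.8% of all genes tested did not.

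To compare genes with one another, normalized counts were divided by the length of the union of annotated exons, in kilobases. With DMSO the highest level was that of UHRF1, at 1341 ± 36.6 normalized counts per kilobase. DNMT1 followed at 784 ± 35.6 and MBD4 at 740 ± 44.4, and the values of this pair overlapped. TDG had 344 ± 14.6, TET1 301 ± 11.2, DNMT3B 207 ± 6.33 and TET2 178 ± 3.56, each apart from its neighbours. TET3 at 92.6 ± 9.19 and DNMT3A at 91.2 ± 5.09 were the lowest and overlapped. UHRF1 and DNMT1 were expressed well above the de novo enzymes and the dioxygenases on this scale. With JQ1 and with I-BET 762 the order was the same except that DNMT3B stood above TET1, at 287 ± 12.4 against 181 ± 9.65 with JQ1 and 284 ± 14.4 against 223 ± 3.86 with I-BET 762. In the treated groups no neighbours overlapped, and DNMT3A stood alone at the bottom, at 25.5 ± 0.898 with JQ1 and 31.9 ± 2.28 with I-BET 762. The order depends on the length used. With the longest annotated transcript in place of the union, DNMT1 ranked above UHRF1, DNMT3B above TET1, and DNMT3A above TET3 with DMSO.

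**Figure D3:**
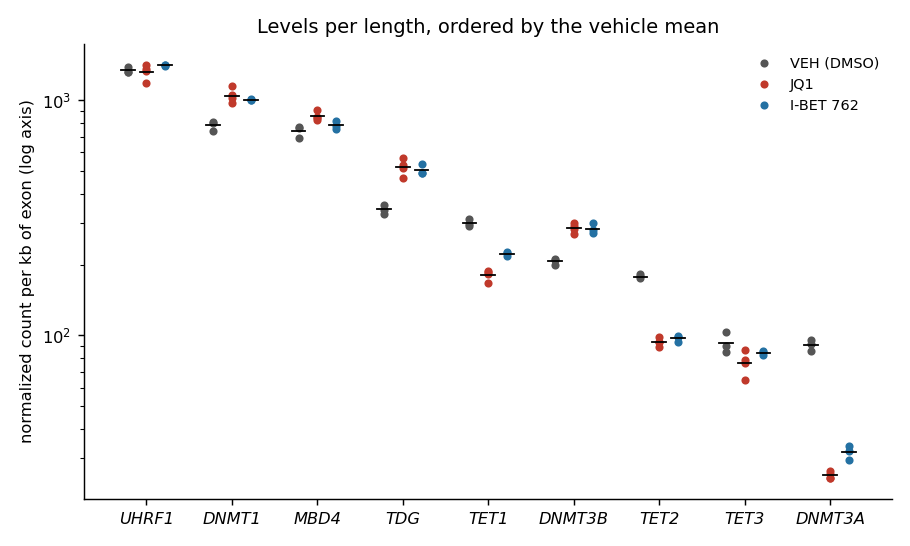
Normalized count per kilobase of exon (log axis) of the 9 genes in each library (points), with group means (black lines), ordered by the DMSO mean. UHRF1 is highest at 1341 and DNMT3A lowest at 91.2 with DMSO, and DNMT3A drops to 25.5 with JQ1.

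Within the DNMT family, DNMT1 held 72.5% ± 0.263 of the summed DNMT level per kilobase with DMSO, 77.0% ± 0.73 with JQ1 and 76.1% ± 0.981 with I-BET 762. DNMT3A held 8.43% ± 0.228 with DMSO, 1.88% ± 0.110 with JQ1 and 2.41% ± 0.169 with I-BET 762. DNMT3B held 19.1% ± 0.243, 21.1% ± 0.622 and 21.5% ± 0.889. Each of these 3 shares differed between JQ1 and DMSO with p = 0.0286 in a two-sided exact permutation test, the smallest that 35 assignments of 4 and 3 libraries allow. With I-BET 762 each had an exact permutation p of 0.1, the smallest that 3 against 3 libraries allow. Those tests cannot reach 0.05. With either inhibitor, every treated library was lower in DNMT3A and higher in DNMT1 and DNMT3B than every DMSO library. The DNMT3A share therefore had to separate, and its p-values are no further evidence of a change. The shares of a family add up to the whole, so their tests are not separate results.

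Among the TET genes, TET1 held 52.7% ± 0.196 of the summed level with DMSO, 51.6% ± 1.11 with JQ1 and 55.1% ± 0.295 with I-BET 762. TET2 held 31.2% ± 0.842, 26.7% ± 1.33 and 24.0% ± 0.351. TET3 held 16.1% ± 0.954, 21.8% ± 2.14 and 20.9% ± 0.616. With JQ1 the exact permutation p was 0.229 for TET1, 0.0286 for TET2 and 0.0571 for TET3. With I-BET 762 it was 0.1 for each, again the smallest possible.

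**Figure D4:**
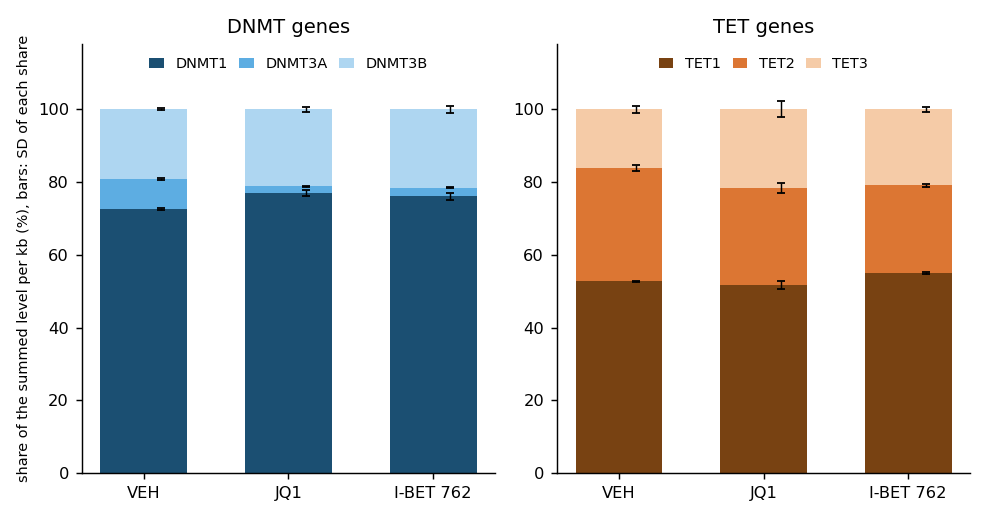
Mean share (y axis, percent) of the summed level per kilobase held by each DNMT gene (left) and each TET gene (right) in the 3 DMSO (VEH), 4 JQ1 and 3 I-BET 762 libraries, with the SD of each share as bars. DNMT3A shrinks from 8.43% to 1.88% and 2.41%, and TET2 from 31.2% to 26.7% and 24.0%.

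The summed TET level was 557 to 599 normalized counts per kilobase in the DMSO libraries, 333 to 369 in the JQ1 libraries and 398 to 408 in the I-BET 762 libraries. The summed DNMT level was 1029 to 1114, 1271 to 1472 and 1307 to 1334. Ratios between these sums were formed after the values had been seen and are given without a test. The summed DNMT level was 1.89 ± 0.0608 times the summed TET level with DMSO, 3.87 ± 0.213 times with JQ1 and 3.27 ± 0.0651 times with I-BET 762. DNMT3B was 2.27 ± 0.0794 times as high as DNMT3A per kilobase with DMSO. That ratio was 11.3 ± 0.34 in the JQ1 libraries and 8.92 ± 0.573 in the I-BET 762 libraries. Each treated library lay above each DMSO library in both ratios. This follows from the separation of the values that form them, given above, and is no further evidence of a change.

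For the members called with at least 1 inhibitor, the genes with the nearest profile were found from the root mean square difference of log2 values over the 10 libraries, each gene being centred on its DMSO mean. Nearest to DNMT3A were RAB29 (difference 0.072 on the log2 scale) and LRRC41 (0.076). Nearest to TET1 were KIAA1109 (0.036) and CHD2 (0.052). For TET2 they were CROT (0.054) and C1orf216 (0.061), and for TDG they were DENR and TMEM30A (both 0.052). RAB29 had log2 fold changes of -1.82 with JQ1 and -1.54 with I-BET 762, close to the -1.84 and -1.51 of DNMT3A. These are descriptions over the libraries that also gave the changes above.

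Other genes of the pathway were followed as lists, and no list was tested as a set. Of all genes tested, 22.8% were called down and 13.3% up with JQ1, and 17.9% and 8.96% with I-BET 762. Of 9 genes for readers of methylated CpG and related factors, 8 were tested, and 2 were called down and 0 up with each inhibitor. These 2 were ZBTB4 and ZBTB38, zinc finger proteins that bind methylated DNA. ZBTB4 had 1819 ± 43.6 normalized counts with DMSO, 547 ± 44.1 under JQ1 and 901 ± 40.0 under I-BET 762, log2 fold changes of -1.74 and -1.01. ZBTB38 went from 3252 ± 131 to 1484 ± 94.4 and 1836 ± 61.0, log2 fold changes of -1.13 and -0.82. The median log2 fold change of this list was 0.06 with each inhibitor.

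Of 14 partners of the DNMT enzymes, 11 were tested, and 1 was called up and 0 down with each inhibitor. It was TRIM28, a corepressor that recruits silencing factors to zinc finger proteins. Among all genes tested, 13.3% were called up and 22.8% down with JQ1, and 8.96% and 17.9% with I-BET 762. TRIM28 rose from 15263 ± 459 normalized counts to 27069 ± 1414 with JQ1 and 23552 ± 77.5 with I-BET 762. Over this list the median log2 fold changes of the partners were -0.12 and 0.03.

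Of 14 genes that act on TET enzymes or on their cofactor, 13 were tested, and 3 were called up and 0 down with each inhibitor. The shares of all genes tested were 13.3% up and 22.8% down with JQ1, and 8.96% and 17.9% with I-BET 762. D2HGDH, which clears the TET inhibitor hydroxyglutarate, rose by 1.14 and 0.88 on the log2 scale from 288 ± 41.8 normalized counts. IDH3A, a subunit of the enzyme that makes the TET cofactor alpha-ketoglutarate, rose from 3660 ± 201 to 7176 ± 403 and 5980 ± 116. Named after their values were seen, the remaining calls were GADD45B, a stress gene, with JQ1 (0.98) and SINHCAF with I-BET 762. SINHCAF varied widely between the I-BET 762 libraries, at 175 ± 138 normalized counts against 26.5 ± 12.7 with DMSO, a log2 fold change of 2.04 (standard error 0.74, adjusted p = 0.0257 from limma). The median log2 fold changes were 0.19 and 0.12.

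Of 16 genes of base excision repair, the pathway that completes active demethylation, all were tested. With JQ1, 1 was called up and 2 down, where 13.3% and 22.8% of all genes tested were. With I-BET 762, 1 was called up and 1 down, against 8.96% and 17.9%. NEIL1, a glycosylase for oxidized bases, fell from 285 ± 14.9 normalized counts to 22.9 ± 5.10 with JQ1 and 36.7 ± 9.49 with I-BET 762. Its log2 fold changes of -3.60 (standard error 0.20, adjusted p = 2.27e-10 by limma) and -2.95 (standard error 0.22, adjusted p = 1.26e-08) exceeded those of all 9 members. LIG3, a DNA ligase named after its value was seen, was the other gene called down with JQ1 (-0.60). Median log2 fold changes were 0.08 and 0.07.

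Of 14 genes of the methyl donor cycle, 13 were tested. JQ1 raised 3 and lowered 2 past the thresholds, where 13.3% and 22.8% of all genes tested were called. I-BET 762 raised 1 and lowered 2, against 8.96% and 17.9%. CBS, which draws homocysteine out of the cycle, fell from 36.2 ± 4.85 normalized counts, with log2 fold changes of -1.55 and -1.04. Among those called up with JQ1 were, named after their values were seen, AHCY (0.64) and MTRR (0.61). MAT1A, the liver form of the enzyme that makes S-adenosylmethionine, fell from 16.3 ± 4.76 normalized counts to 0 reads in each JQ1 library and at most 1 read in each I-BET 762 library. Over this list the median log2 fold changes were -0.06 and -0.07.

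DNMT1 and UHRF1 are known to follow the replication of DNA, so 20 replication genes were set beside them. With JQ1, 2 were called up and 1 down, where 13.3% and 22.8% of all genes tested were. With I-BET 762, 0 were called up and 1 down, against 8.96% and 17.9%. The median log2 fold change was 0.07 with each inhibitor, beside 0.42 and 0.36 for DNMT1 and -0.02 and 0.07 for UHRF1. The 2 called up, named after their values were seen, were RRM2 (0.88), a subunit of ribonucleotide reductase, and SLBP (0.64), which binds histone mRNA. MCM5, a subunit of the replicative helicase, fell from 7412 ± 229 normalized counts to 3608 ± 158 with JQ1 and 4690 ± 131 with I-BET 762.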

How the data were processed

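RNA-seq libraries of SK-UT-1 cells were put into groups by the labelled treatment. According to the authors' methods and processing notes, reads were checked with FastQC 0.73, trimmed (Trimmomatic), mapped to hg38 by HISAT2 2.2.1, counted with featureCounts 2.0.3 on Gencode genes, and normalized with DESeq2, and outlier samples were left out. Per symbol and library, the authors deposited the log2 of a normalized count to which 1 was added, without correction for gene length. Undoing the log gave whole multiples of 1 step (within 0.05 reads) for 99.75% to 99.78% of the values of a library, from which reads were recovered. Floors and limits cover counting error only. No replicate pair agreed within sampling noise (chi-square per gene 2.77 to 22.12).

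Symbols with at least 10 normalized counts in at least 3 libraries were fitted on the whole table with limma 3.58.1 (R 4.3.3), all 10 libraries in 1 model with an intensity trend and Benjamini-Hochberg adjustment over the 14839 symbols. The code was tested on simulated data. Shares were compared by exact permutation over libraries. Gene positions, exon lengths and overlaps came from Gencode V44, and exact copies of 75-base exon stretches were sought in 194 primary sequences of hg38. Tables were made with Python 3.11.15, numpy 2.4.6 and pandas 2.3.3. Members, lists and tests were chosen with earlier results of these data known. Besides the members, up to 3 risers and 3 fallers per list were named, those called alike with both inhibitors and ranked by the smaller change, with the 2 nearest genes per called member, and HEXIM1, MYC, BRD2 and BRD3. Some genes that meet this rule are not reported here. Alternatives were other pseudocounts (0.5 and 5), filters, scalings, variance models, gene lengths and fold thresholds, limma-voom on the recovered reads, and leaving out each library. Batches are not named in the labels.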

Additional observations from a re-analysis of the deposited data

Results flagged for a closer look

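For DNMT3A and TET1 the changes with JQ1 and with I-BET 762 against the same DMSO libraries differed in the direct comparison of the inhibitors by limma. The change of DNMT3A with JQ1 minus that with I-BET 762 was -0.32 on the log2 scale (adjusted p = 0.00406), lower in 4 of 4 JQ1 libraries than in any I-BET 762 library. That of TET1 was -0.30 (adjusted p = 0.000683), again with no overlap between the 4 JQ1 and 3 I-BET 762 libraries. Over all alternatives the difference ran from -0.41 to -0.28 for DNMT3A and from -0.39 to -0.26 for TET1, with adjusted p-values of 0.00145 to 0.0301 and 0.000155 to 0.00608. Neither difference exceeded 1.5-fold.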

How the results depend on the processing

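Of 513 log2 fold changes of the members under 19 alternatives, 498 kept their direction and their side of the adjusted p-value threshold. Rescaling to equal totals moved the median of all genes by -0.177 with JQ1 and -0.097 with I-BET 762 and lowered the members with it. The share of calls that were falls went from 63.1% to 77.7% with JQ1, 66.7% to 75.7% with I-BET 762, and 67.5% to 82.2% between the inhibitors. UHRF1 was then -0.21 with JQ1 (adjusted p = 0.00985) and -0.02 with I-BET 762, and MBD4 was 0.03 and -0.01. Between the inhibitors, equal totals turned DNMT1 to -0.03, DNMT3B to -0.07 and TDG to -0.05, and brought TET2 (-0.14, adjusted p = 0.0274) and UHRF1 (-0.19, adjusted p = 0.0416) under the threshold. Equal upper quartiles turned DNMT3B to -0.01 there, as did leaving out JQ1 replicate 20 or I-BET 762 replicate 21 (-0.01 each). Without JQ1 replicate 18, UHRF1 with JQ1 was 0.03 and TDG between the inhibitors was -0.01. Leaving out 1 library at a time gave -0.06 to 0.03 for UHRF1 with JQ1, and between the inhibitors -0.01 to 0.06 for DNMT3B and -0.01 to 0.08 for TDG. The cause was not tested.

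The 1 member called up with JQ1 (TDG) became 0 under equal totals, equal upper quartiles and a fold change over 2, and 4 without a fold threshold, and leaving out a library gave 0 to 1. With I-BET 762, 0 called up became 3 without a fold threshold, and leaving out a library gave 0 to 1. The 3 members called down with JQ1 and the 2 with I-BET 762 became 1 each (DNMT3A) over 2-fold. Between the inhibitors, 0 called lower with JQ1 became 2 without a fold threshold. By the longest transcript, 3 of 9 members kept their rank per length. Without length correction, the differences in share were 3.07 percentage points for TET1 and -8.69 for TET2 with I-BET 762, 5.55 for DNMT1 and 1.07 for DNMT3B with JQ1, and 4.79 and 1.28 with I-BET 762. By the longest transcript they were 3.59 for TET1 and -8.47 for TET2 with I-BET 762, 3.5 for DNMT1 and 1.32 for DNMT3B with JQ1, and -4.82 and -4.43 for DNMT3A with JQ1 and I-BET 762. No paired analysis was possible because the replicate numbers 13 to 24 are all different.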

Other observations

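Genes whose silencing is known to depend on DNA methylation were also followed. Of 30 germline genes, 15 were in the table, and 10 of these had at most 3 reads in every library of every group. Among them were the cancer-testis genes MAGEA1, MAGEA4, MAGEC2 and SSX1. Only TEX14 and HORMAD1 passed the filter on low values, and they moved in opposite directions. TEX14, a gene of germ cell bridges, rose from 154 ± 15.8 normalized counts (SD, n = 3) with DMSO to 2724 ± 103 under JQ1 and 1311 ± 125 under I-BET 762, log2 fold changes of 4.14 and 3.08 by limma. HORMAD1, a meiotic chromosome protein, fell by 1.25 and 1.06 on the log2 scale, from a DMSO mean of 428.

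Of 22 imprinted genes, 17 were in the table and 11 were tested. With JQ1, 2 were called up and 3 down, where 13.3% and 22.8% of all genes tested were. With I-BET 762, 2 were called up and 2 down, against 8.96% and 17.9%. PLAGL1, a zinc finger growth regulator, rose by 1.27 and 1.10 on the log2 scale, from 237 ± 39.9 normalized counts. SGCE, a sarcoglycan, fell from 67.4 ± 8.62 to 20.1 ± 2.79 and 30.1 ± 8.47. Named after their values were seen, the other calls with JQ1 were PEG10 (0.60), GRB10 (-0.62) and L3MBTL1 (-0.73), and those with I-BET 762 were MEST (0.75) and IGF2 (-1.30). The median log2 fold changes of the tested imprinted genes were 0.27 and 0.14, beside 0.01 and 0.00 for all genes tested. DNA methylation itself was not measured in these libraries.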
